A study of Mus musculus with 4 samples.

Results

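The genome annotation deposited with a Pol I CUT&Tag study of mouse embryonic stem cells was searched for defensin genes. Members were the rows on assembled chromosomes whose symbol starts with Defa or Defb followed by a digit. This gave 71 genes of 26125 gene symbols on the assembled chromosomes, 28 of them alpha defensins (34 transcript rows) and 43 beta defensins (45 transcript rows). The reference gene table classed 70 of the 71 as protein coding and the other, Defb44-ps, as a transcribed pseudogene.

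CUT&Tag tethers a transposase to chromatin through an antibody, here one against RNA polymerase I (Pol I), the enzyme that makes ribosomal RNA. The 4 libraries came from the C64 embryonic stem cell line, grown with serum and ESGRO, and form 2 groups, untreated control (2 libraries) and 500 nM auxin for 6 h (2 libraries). Auxin is a plant hormone used to trigger degradation of proteins that carry a degron tag, and the labels name no tagged protein. The table analysed is one annotation for the whole series without a value per library. Pol I occupancy over defensin genes was therefore not analysed here and the depth of the libraries is unknown. All values that follow are fixed coordinates or reference letters, without replicates, so no test is given.

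Defensins are small, cysteine-rich, cationic peptides of innate immunity that damage microbial membranes. Each is made as a precursor with a signal peptide, and alpha defensins carry a longer acidic propeptide that is cut off during maturation. Mouse alpha defensins, many of them called cryptdins, are made by Paneth cells at the base of intestinal crypts, where the protease Mmp7 activates them. Beta defensins are made by epithelia of skin, airway, kidney and gut, and many are known from the epididymis and testis, where some coat sperm.

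Promoter letters were available for 45 of the 71 genes, and they show how alike members are in sequence. The RefSeq promoter table (GRCm38.p6) matched 16 alpha genes with 1 window each and 29 beta genes with 30 windows, each running from 250 bases before an annotated start to 50 after it. The start site inside the window was the start of an annotation row in all 46. In 37 windows the annotated coding start also fell inside, and the letters there were ATG in 37 of 37.

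The next lines show 60 bases around the TATAAA box of alpha genes, 5′ to 3′ on the gene's own strand, with TATAAA in capitals. They were chosen to show each group of matching promoters and the member without the box. A TATA box is the promoter element bound by the TATA-binding protein.

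Defa21 (chr8:21025494-21025553, plus; the same letters in Defa22): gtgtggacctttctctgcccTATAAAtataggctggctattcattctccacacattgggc
Defa2 (chr8:21378466-21378525, plus; the same letters in Defa20 and Defa32): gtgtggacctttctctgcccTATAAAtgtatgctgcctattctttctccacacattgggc
Defa23 (chr8:21054987-21055046, plus; the same letters in Defa31): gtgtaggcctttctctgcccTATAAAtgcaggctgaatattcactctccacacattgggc
Defa36 (chr8:21427362-21427421, plus; the same letters in Defa37): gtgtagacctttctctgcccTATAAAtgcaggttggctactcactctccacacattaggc
Defa42 (chr8:21456552-21456611, minus; the same letters in Defa43): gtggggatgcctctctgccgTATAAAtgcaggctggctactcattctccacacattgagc
Defa38 (chr8:21096085-21096144, minus): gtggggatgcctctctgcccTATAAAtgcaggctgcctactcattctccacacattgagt
Defa28 (chr8:21582933-21582992, plus; no TATAAA): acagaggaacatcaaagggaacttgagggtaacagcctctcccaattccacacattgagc

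The box TATAAA was found on either strand in 15 of 16 alpha windows (93.8%), against 5 of 30 beta windows (16.7%) and 4473 of 32851 windows of the whole promoter table (13.6%). In alpha genes the match lay on the gene's strand in all 15, and its first base stood exactly 74 bases before the A of ATG in 15 of 15. Its distance to the annotated start, in contrast, ran from 29 bases in Defa32 to 74 bases in Defa38, Defa41, Defa42 and Defa43. In those 4 genes the annotated row starts at ATG itself, so the window labelled as promoter includes bases that correspond to the transcribed leader of the other alpha genes. Within 16 to 45 bases before the annotated start, TATAAA was found in 7 of 16 alpha windows (43.8%), 2 of 30 beta windows (6.67%) and 2.14% of all windows. In Defa35, Defa36 and Defa37 it stood at 46 bases, just outside these limits. A match is a description of letters and does not show that a factor binds.

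Defa28 had 71 fewer bases than the other 15 alpha genes between 2 stretches that it shares with them. A stretch of 40 bases that starts 90 bases before ATG in Defa28 (chr8:21582937-21582976, plus strand, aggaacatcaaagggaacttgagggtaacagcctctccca) had its best match 161 bases before ATG in each of the other 15, with 30 to 38 of 40 letters the same. The 44 bases next to ATG were also alike, at 88.6% to 97.7% identity with Defa28. The 74-base position of TATAAA lies between these matching stretches, in the part without a counterpart in Defa28. The reference table starts the Defa28 gene at base 21582960 whereas the annotation row and the RefSeq promoter window both place the start at 21583027.

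Among beta genes a different TATA-like word, TATATAA, marked a group on chromosome 8. It was found on either strand in 5 of 30 beta windows (16.7%), in 0 of 16 alpha windows and in 3.24% of all windows. The word overlaps TATAAA where a further A follows it. The 5 genes were Defb3, Defb5, Defb6, Defb7 and Defb8, and the word stood 58 bases before ATG in 5 of 5. After the word, Defb3, Defb6, Defb7 and Defb8 had the same letters up to the end of the stretch shown, and Defb5 differed in a few. Their neighbour Defb46 lacked the word but had the same following letters as Defb3. The lines show 60 bases at the same distance from ATG, with TATATAA in capitals.

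Defb3 (chr8:19293295-19293354, plus): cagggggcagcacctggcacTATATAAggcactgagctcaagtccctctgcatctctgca
Defb6 (chr8:19225427-19225486, plus): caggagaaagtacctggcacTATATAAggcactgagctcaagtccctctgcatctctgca
Defb5 (chr8:19247514-19247573, plus): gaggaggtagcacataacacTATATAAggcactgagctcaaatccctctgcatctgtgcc
Defb8 (chr8:19447612-19447671, minus): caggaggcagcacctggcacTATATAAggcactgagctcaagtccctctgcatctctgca
Defb46 (chr8:19239838-19239897, plus): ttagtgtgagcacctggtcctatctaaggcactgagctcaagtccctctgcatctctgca

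Over the whole windows of 300 bases, alpha promoters were more alike than beta promoters. Identity was counted as the percent of identical columns in a global alignment of each pair. Its median was 72.4% over 120 alpha pairs (range 52.0% to 100%), 50.6% over 434 beta pairs (45.3% to 87.9%) and 50.6% over 480 pairs of an alpha with a beta gene (44.4% to 56.2%). Pairs share genes, so these are descriptions and not independent values. At least 90% identity was reached by 17 alpha pairs and 0 beta pairs. In 5 alpha pairs all letters of the window were the same, namely Defa21 with Defa22, Defa23 with Defa31, Defa2 with Defa20, Defa36 with Defa37, and Defa42 with Defa43. A read that lies inside such a window has the same letters at both genes. Defa32 matched Defa2 and Defa20 at 98.7% over the windows and at 100% over the 200 bases before ATG. Its annotated start lies 45 bases before ATG, against 43 in Defa2 and Defa20.

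**Figure D1:**
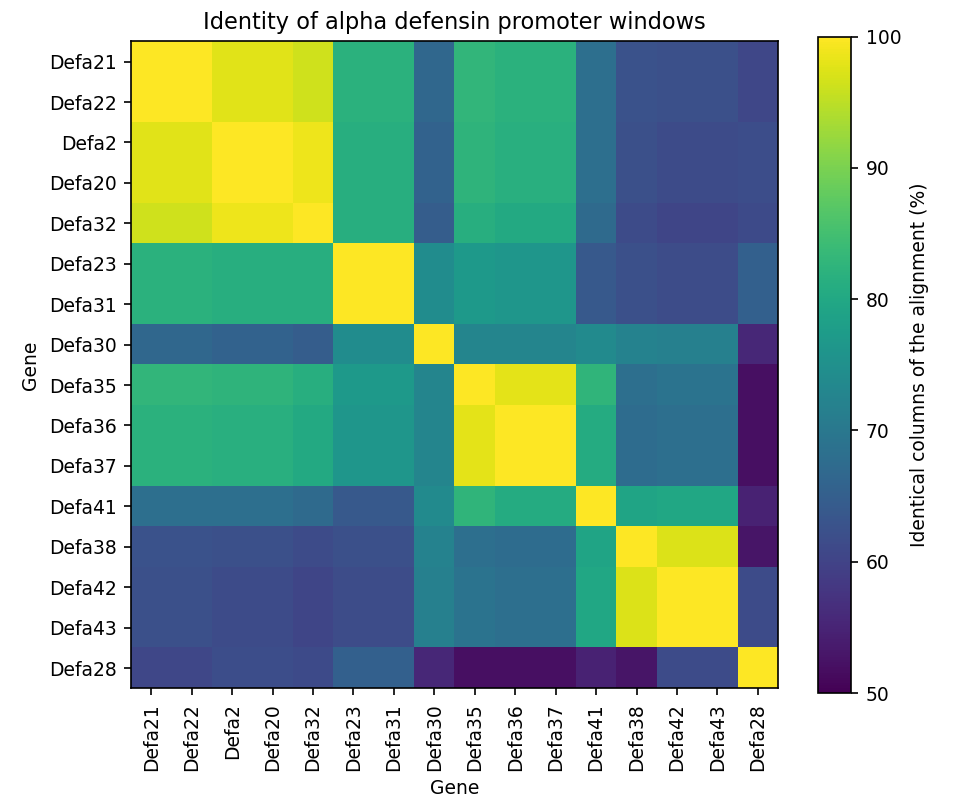
Percent identity (colour scale from 50 to 100) between the RefSeq promoter windows of 16 alpha defensin genes, on both axes in the same order. Bright blocks hold Defa21, Defa22, Defa2, Defa20 and Defa32, then Defa23 with Defa31, then Defa35, Defa36 and Defa37, and the minus-strand genes Defa38, Defa42 and Defa43. Defa28 is the darkest row, and its lowest identity is 52.0%.

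The 6 beta genes of this group (Defb3, Defb5, Defb6, Defb7, Defb8 and Defb46) had a median pairwise identity of 76.8% over 15 pairs, from 65.8% to 87.9%. The highest pair was Defb3 with Defb8. Outside this group the highest beta pair was Defb10 with Defb11, at 72.0%. The group was put together after the sequences were seen, so its identity is given only as a description.

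The genes fell into 5 clusters on 4 chromosomes when neighbours at most 1 Mb apart were joined. Chromosome 8 held 52 of the 71 genes, including all 28 alpha genes, in 2 clusters that lie 1394891 bases apart. The second of these (chr8:20892667-21948622, 1055956 bases) held 38 genes, from Defb33 to Defb13. Its alpha genes formed an unbroken array of 709927 bases (chr8:21025545-21735471) with 0 beta genes inside. Defb33 stood on one side of the array. On the other stood Defb1, Defb50, Defb2, Defb10, Defb9, Defb11, Defb15, Defb35 and Defb13.

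**Figure D2:**
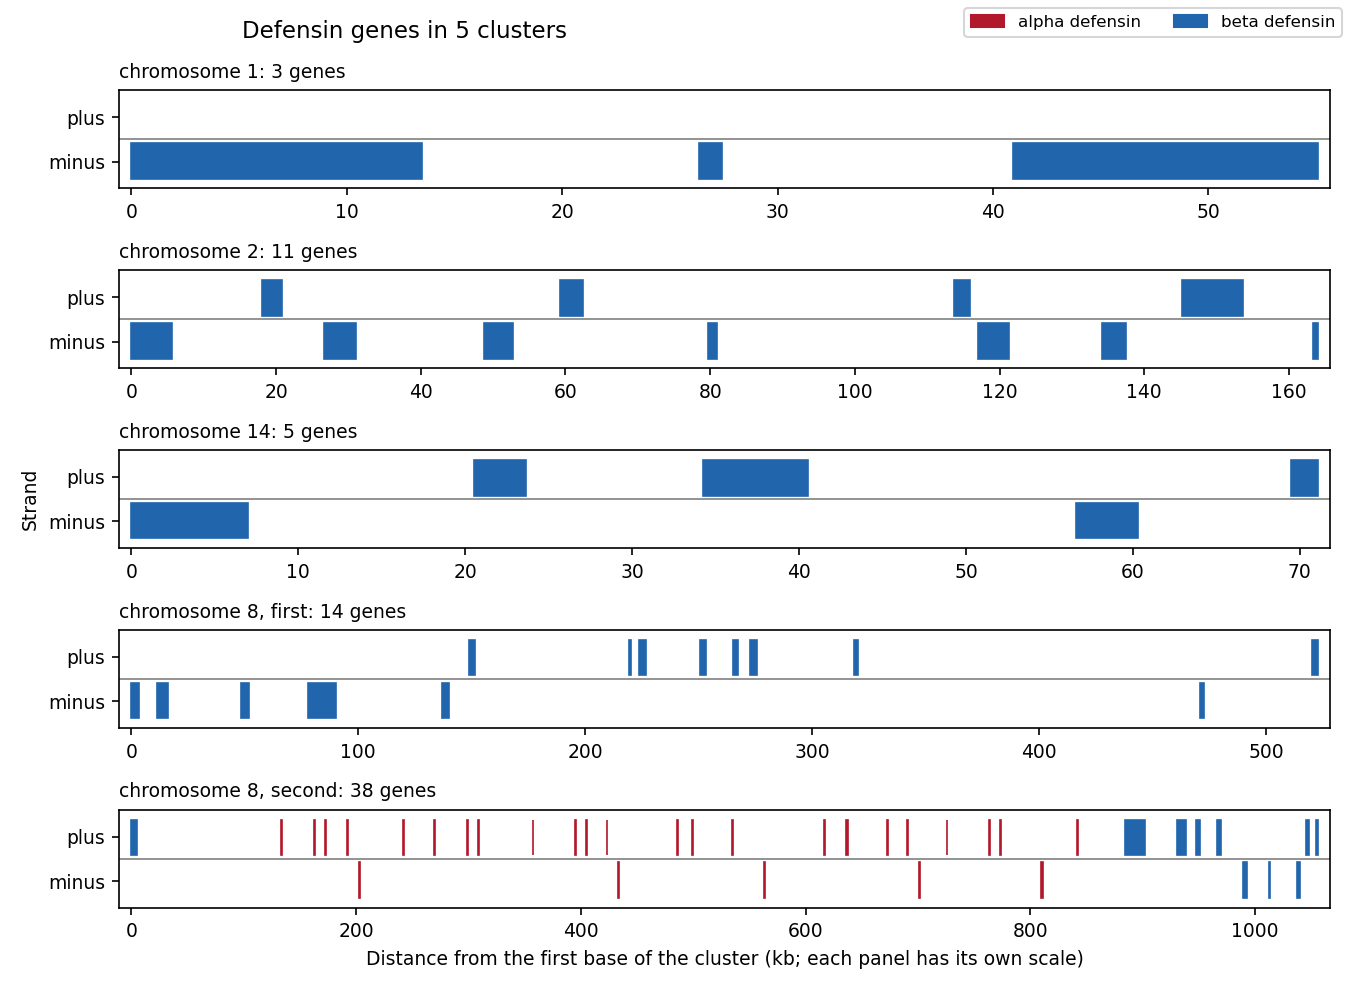
Position of each defensin gene (horizontal axis, kb from the first base of its cluster, own scale per panel) on the plus or minus strand, with alpha genes in red and beta genes in blue. The bottom panel shows the alpha array with 23 genes on the plus strand and 5 on the minus strand, between Defb33 and the other 9 beta genes.

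The first chromosome 8 cluster (chr8:18974914-19497775, 522862 bases) held 14 beta genes. In order they were Defb40, Defb37, Defb38, Defb39, Defb12, Defb34, Defb14, Defb4, Defb6, Defb46, Defb5, Defb3, Defb8 and Defb7. The first 5 lay on the minus strand, and of the other 9 only Defb8 did. Defb14 and Defb4, known as beta defensins induced by microbes or inflammation in epithelia, were neighbours on the plus strand with 3394 bases between them. The same cluster contains Spag11b and Spag11a, which encode epididymal proteins related to beta defensins and are not members by name.

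The chromosome 2 cluster (chr2:152459055-152623053, 163999 bases) held 11 beta genes, from Defb23 to Defb25, with 14.9 kb per gene. Its strands changed almost at every step, with 9 runs of equal strand over 11 genes (4 plus, 7 minus). In order the genes were Defb23, Defb20, Defb22, Defb26, Defb28, Defb29, Defb21, Defb19, Defb45, Defb36 and Defb25. The chromosome 14 cluster (chr14:62977524-63048606, 71083 bases) held Defb48, Defb47, Defb43, Defb30 and Defb42. The chromosome 1 cluster (chr1:18210053-18265138, 55086 bases) held Defb44-ps, Defb18 and Defb41, all on the minus strand.

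By strand, 23 of 28 alpha genes (82.1%) and 22 of 43 beta genes (51.2%) lay on the plus strand, beside 49.9% of 20992 coding loci in the annotation. The 5 minus-strand alpha genes included Defa38, Defa42, Defa43 and Defa39. Each of the 5 had a plus-strand alpha gene on both sides. Neighbours in the alpha array shared their strand in 17 of 27 steps, and beta neighbours in 21 of 37.

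Distances between neighbours were taken between their lowest coordinates, which is the 5′ end of a plus-strand gene and the 3′ end of a minus-strand gene. The lowest coordinate of one alpha gene was 9985 to 53831 bases from that of the next (median 27627, quartiles 11911.5 and 36541.5, 27 steps). For beta neighbours the distance ran from 3343 to 152408 bases (median 18975, quartiles 11821 and 26774, 37 steps). The extremes were thus wider apart in beta genes, and the quartiles in alpha genes. A distance near 10 kb recurred in the alpha array. In 7 of 27 steps it fell between 9900 and 10600 bases, against 1 of 37 steps among beta genes, with limits chosen after the distances were seen. In 4 of the 7 both genes were on the plus strand, namely Defa23 to Defa35 (9998), Defa31 to Defa41 (10031), Defa3 to Defa5 (9985) and Defa17 to Defa34 (10030). The other 3 ran from a plus-strand gene to the 3′ end of a minus-strand gene, among them Defa25 to Defa38 (10529) and Defa28 to Defa43 (10460). Measured to the 5′ end, each of these 3 would be longer by about the span of the minus-strand gene (1080 bases in Defa38, 979 in Defa43). They would then lie outside the limits.

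**Figure D3:**
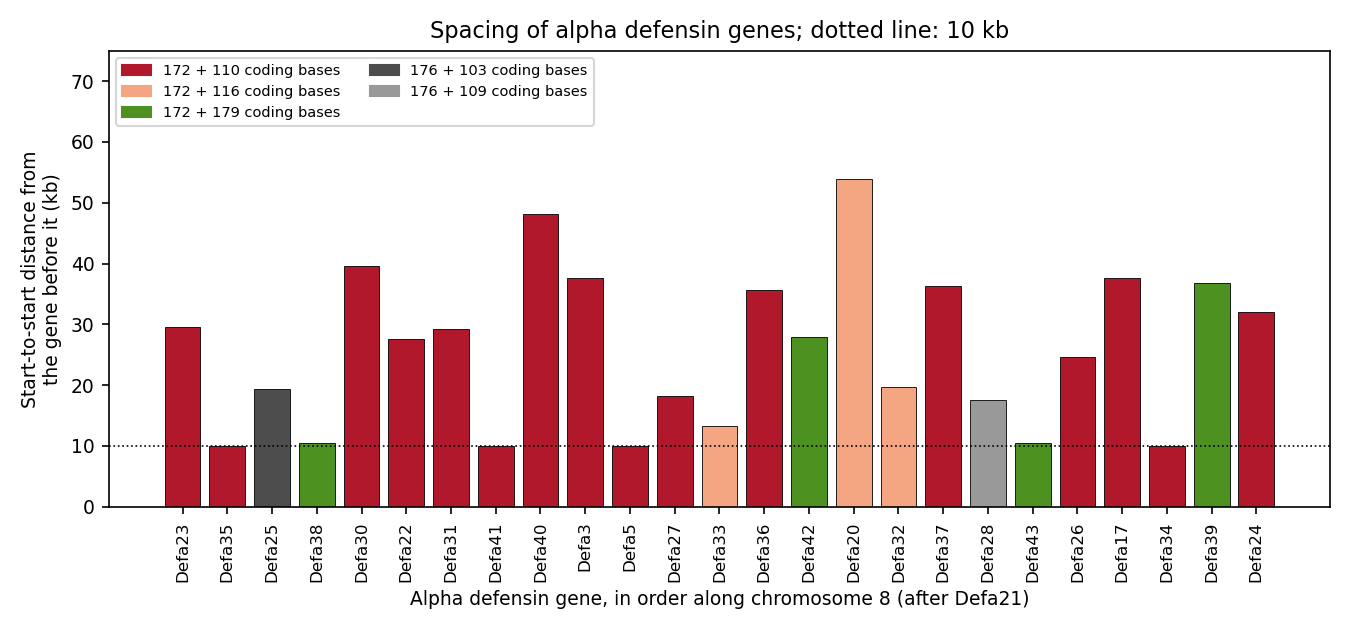
Distance in kb from the start of an alpha defensin gene to the start of the gene before it, for 25 of the 27 steps in order along chromosome 8. Start here means the lowest coordinate, which is the 3′ end of a minus-strand gene. The bar colour gives the coding bases in exons 1 and 2. Bars near the dotted line at 10 kb recur along the array, and Defa38 and Defa43, with 172 and 179 coding bases, are among them.

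All 28 alpha genes had 2 exons. Of the 43 beta genes, 37 (86.0%) had 2 exons and 6 had 3, while 6.82% of 20992 coding genes in the annotation had 2. The 6 were Defb12, Defb21, Defb28, Defb30, Defb33 and Defb42. In Defb21, Defb33 and Defb42 the added exon is a noncoding one at the 5′ end, and in Defb30 a noncoding one at the 3′ end. Only Defb12 and Defb28 had 3 coding exons.

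Alpha genes were shorter and less variable in span. Their spans ran from 805 bases in Defa26 to 1133 bases, with a median of 973. Beta genes spanned 698 bases in Defb25 to 18631 bases in Defb1, with a median of 3165, and 4 of 43 (Defb25, Defb14, Defb11 and Defb18) were no longer than the longest alpha gene. These are spans of the annotation rows, which equal the reference gene spans in 67 of 71 members and differ in Defa28, Defb14, Defb34 and Defb47. The median over all coding loci was 16724 bases. Defb1, a beta defensin made constitutively by kidney and other epithelia, reached its length through an intron of 17715 bases for 210 coding bases.

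Introns differed in the same direction as spans. The intron after the first coding exon had a median of 559 bases in alpha genes (418 to 628) and 2555 bases in 42 coding beta genes (361 to 17715), beside 2628 bases over 17756 genes with at least 2 coding exons. Summed exons were closer, with a median of 418.5 bases in alpha and 364 in beta genes. Within the alpha genes the intron took 3 sizes. It was 418 bases in Defa40 and Defa26, 554 to 565 bases in 21 genes, and 624 to 628 bases in the 5 minus-strand genes.

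Single genes show the range. The alpha genes at the ends of the array were nearly the same size, Defa21 (chr8:21025545-21026517) with 973 bases and Defa24 (chr8:21734494-21735471) with 978. Defa20 had a span of 980 bases and Defa17 a span of 970. Among the beta genes of chromosome 8, Defb14 (chr8:19194328-19195309) spanned 982 bases with an intron of 652, and its neighbour Defb4 (chr8:19198704-19201547) spanned 2844 with an intron of 2386. These 2 genes had 204 and 192 coding bases. The reference table begins the Defb14 gene far upstream, at base 19160244, so by that table its span would exceed that of Defb1. Defb3, which matched Defb4 in both coding exons, had an intron of 1657 bases, and Defb2 one of 3252.

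The chromosome 2 genes covered a similar range. Defb36 (chr2:152604327-152612729) had the longest span there, 8403 bases for 204 coding bases. Its neighbour Defb25, with 698 bases, had the shortest. Defb19 spanned 4227 bases, Defb20 spanned 2872 and Defb29 spanned 1328. On chromosome 14 the end genes Defb48 and Defb42 spanned 6987 and 1616 bases. On chromosome 8 the end genes of the first cluster, Defb40 and Defb7, spanned 3308 and 2679 bases, and those of the second, Defb33 and Defb13, spanned 5057 and 1868.

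**Figure D4:**
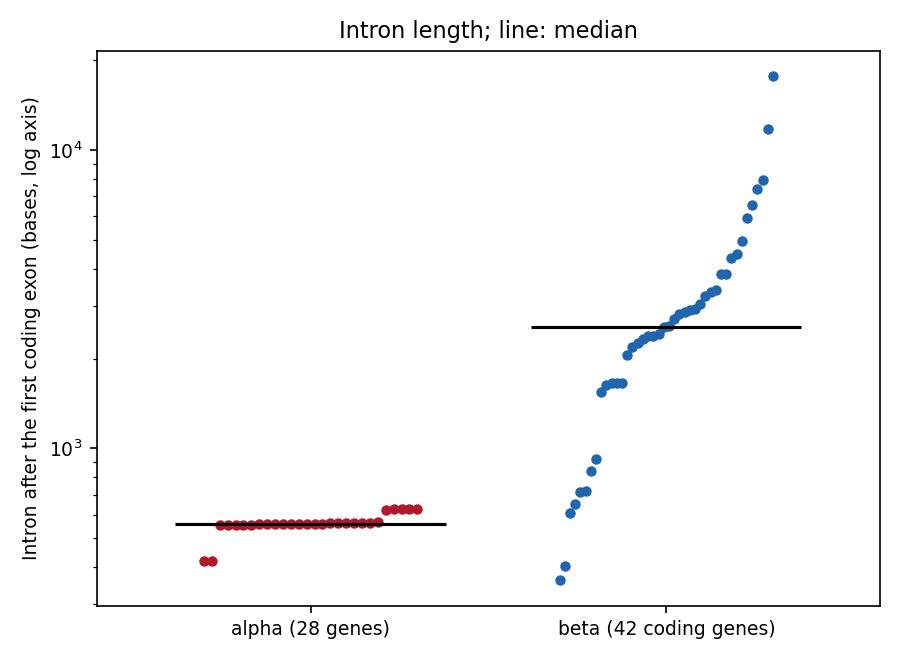
Length in bases (log axis) of the intron after the first coding exon, 1 point per gene sorted by length, with a line at the median. Alpha genes lie between 418 and 628 bases and beta genes between 361 and 17715 bases.

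Coding length showed the reverse order. Alpha genes had a median of 282 coding bases with the stop codon (279 in Defa25 to 351 in the 5 minus-strand genes), and beta genes a median of 219 (174 in Defb46 to 561 in Defb26). The median of all coding genes was 1221. All 70 coding members had a coding length that is a multiple of 3.

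The first coding exon separated the classes without overlap. It held 172 coding bases in 26 of 28 alpha genes and 176 in Defa25 and Defa28, whereas in beta genes it held 48 to 94. In beta genes 58 bases was the commonest size (20 of 42), followed by 61 (9 of 42) and 55 (3 of 42). The 9 genes with 61 bases, Defb40, Defb37, Defb38, Defb39, Defb1, Defb2, Defb10, Defb9 and Defb11, were all on chromosome 8, in runs of neighbours interrupted only by Defb50. As background, the first exon of a beta defensin encodes little beyond the signal peptide, and that of an alpha defensin encodes the signal peptide with most of the propeptide.

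The first coding intron interrupts a codon after its first base (phase 1) in 26 of 28 alpha and 39 of 42 beta genes, 92.9% in both classes, and in 39.5% of 17756 coding genes. The 5 exceptions were Defa25, Defa28 and Defb5 (phase 2) and Defb34 and Defb35 (phase 0). In 5 of these 5 the annotated row starts at the coding start, with no leader bases. Of all 12 members annotated in this way, the other 7 were in phase 1.

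**Figure D5:**
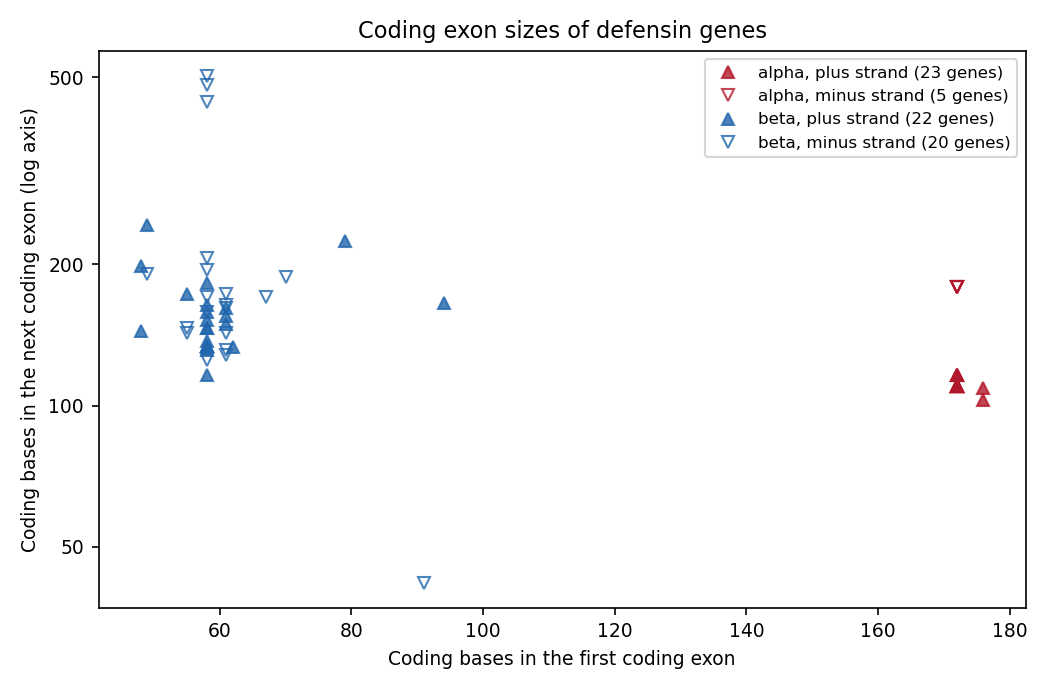
Coding bases in the first coding exon (horizontal axis) and in the next coding exon (vertical log axis) of 70 defensin genes, red for alpha and blue for beta, with filled upward triangles for the plus strand and open downward ones for the minus strand. Alpha genes sit at 172 or 176 bases and beta genes at 94 or less. The open red triangles are 5 genes on the same spot, at 172 and 179.

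The second coding exon, which holds the mature peptide, divided the alpha genes further. It had 110 coding bases in 17 genes with a first exon of 172, all on the plus strand. These were Defa21, Defa23, Defa35, Defa30, Defa22, Defa31, Defa41, Defa40, Defa3, Defa5, Defa27, Defa36, Defa37, Defa26, Defa17, Defa34 and Defa24. It had 116 in Defa2, Defa33, Defa20 and Defa32, 103 in Defa25 and 109 in Defa28. In all 5 minus-strand genes it had 179.

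In beta genes the second coding exon varied more, and 3 genes of the chromosome 2 cluster had the longest ones. Defb26 had 503 coding bases there, Defb22 had 482 and Defb23 had 443, and all 3 lay on the minus strand with a first coding exon of 58. Defb22 encodes a sperm surface protein with a long tail after its defensin domain. The next longest coding parts were those of Defb21 (303 bases in all) and Defb20 (291), also on chromosome 2. Median coding length was 270 bases in the 11 chromosome 2 genes, 228 in the 5 of chromosome 14, 193.5 in the 14 of the first chromosome 8 cluster and 213 in the 10 beta genes of the second.

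Equal sizes of all exons were seen only among alpha genes. Such a match depends on where the annotated row begins and ends. The rows of Defa41 and Defa27 hold coding bases only, and Defa2 (215 and 209 bases) and Defa20 (215 and 210) do not match although their promoter windows do. With all exon sizes compared, 7 of 28 alpha genes matched another member and 0 of 43 beta genes did. The matches were Defa21, Defa22 and Defa24 (215 and 204 bases), Defa41 and Defa27 (172 and 110), and Defa33 and Defa32 (217 and 210). With coding bases alone, 26 alpha and 9 beta genes shared their sizes. The 9 beta genes were Defb3, Defb4 and Defb6 (58 and 134), Defb14 and Defb36 (58 and 146), Defb7 and Defb25 (58 and 158), and Defb10 and Defb40 (61 and 161). Defb36 and Defb25 lie on chromosome 2 while their matches lie on chromosome 8, so equal sizes also occur between chromosomes.

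No defensin symbol had more than 1 locus. On the assembled chromosomes this held for every coding symbol, with 20992 loci for 20992 coding genes, so it is not particular to defensins. Similar copies carry separate symbols, such as Defa23 and Defa31. In addition, 0 member rows stood on alternate or unplaced contigs, where 1355 of the 26125 symbols (5.19%) had a further locus. Rows repeated with the same coordinates were another matter. In 6 of 28 alpha genes (21.4%) the row was present 2 times with the same exons and coding part, namely Defa23, Defa31, Defa36, Defa37, Defa42 and Defa43. This was so in 0 of 43 beta genes and in 1.68% of coding genes in the annotation. A sum over rows counts such a gene 2 times.

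The 2 beta genes with more than 1 row had different transcripts. Defb41 (chr1:18250978-18265138, minus) had a row of 14161 bases with 189 coding bases and a row of 4748 bases with 198. Defb21 had rows of 2202 and 1197 bases that both held 303 coding bases and differed in a noncoding exon at the 5′ end. Defb41 is the last gene of its cluster and its neighbour Defb18, with 1075 bases, is the shortest there. Defb44-ps had 2 exons of 44 and 178 bases and no coding part.

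How far rows reach beyond the coding part also differed. In 8 of 28 alpha genes (28.6%) and 4 of 42 beta genes (9.52%) the row started at the coding start, against 6.87% of all coding genes. The 8 alpha genes were Defa25, Defa38, Defa41, Defa27, Defa42, Defa28, Defa43 and Defa34, and the 4 beta genes Defb34, Defb46, Defb5 and Defb35. In 5 alpha genes (17.9%) and 3 beta genes (7.14%) the row held coding bases only, against 6.20% of all coding genes.

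None of the 71 loci shared a base with a locus of another symbol, while 4029 of 20992 coding loci in the annotation (19.2%) did. On chromosome 2 the lncRNA gene Gm14161 (minus strand) and Defb21 (plus strand) had 378 bases between their 5′ ends. Every interval of the members is thus assigned to 1 symbol, although promoter letters are not unique for at least the 5 pairs of alpha genes named above. Defa32 also shared the 200 bases before ATG with Defa2 and Defa20. Only 16 of the 28 alpha genes had a promoter window to compare.

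Other genes of the defensin regions and of host defence were looked up from a list of 30 symbols, of which 24 had a row on an assembled chromosome. Mmp7, the protease that activates mouse alpha defensins, lay on chromosome 9 (chr9:7692090-7699585) with 804 coding bases. Ccr6, a chemokine receptor that some beta defensins can bind, lay on chromosome 17 (chr17:8236043-8257141). Further antimicrobial proteins of Paneth cells, neutrophils and epithelia, such as Lyz1, Reg3g, Camp and Slpi, were on chromosomes 10, 6, 9 and 2. Of the list, only Defa-ps1, Defa-ps12, Spag11a and Spag11b lay inside a defensin cluster. Defa-ps12, with Defb46-ps as another name, lay among the beta genes of the first chromosome 8 cluster. Defa-ps13 (Defb54-ps), which was not on the list, lay there too. Defa-rs7 is another name of Defa31, and 4 symbols (Defa-rs2, Defa-rs4, Defa-rs12 and Defb-ps1) were not matched. The symbol Defa1 had no row.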

How the data were processed

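A single 12-column BED table of the whole series was read, with 50727 rows, of which 24 on the rDNA contig were left out. The authors deposited a score of 0 for every row, so scores carry no signal. The submitters' processing notes name mm10 and, without versions, Bowtie2, bedtools, deepTools and FastQC. How the annotation was made is not given in the sources used here. Starts were converted to count from 1.

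A locus joins the rows of 1 symbol, contig and strand that overlap by 1 base or more. Exons and coding bases come from the row with the longest coding part. Clusters join loci at most 1 Mb apart. The reference tables are RefSeq, GRCm38.p6. Promoter windows were aligned globally with Biopython 1.88 (match 1, mismatch -1, gap opening -2, gap extension -0.5). Tables were handled with pandas 2.3.3 and figures drawn with matplotlib 3.10.9. The overlap, cluster and identity routines were tested on simulated data.

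Genes named with values were the first and last of each cluster, the extremes of each class in span, exons and coding length, any with several loci, a shared base or no coding part, and a list of known members. The members and lists were chosen with earlier results of these data known. Other genes, the groups by exon size and promoter, and the promoter comparisons were named after values were seen. One gene is counted in the totals and not reported by name here. The plan to count cysteines in the proteins was not carried out, as no protein table was used here.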

Additional observations from a re-analysis of the deposited data

How the results depend on the processing

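Over 18 results and 49 alternatives, 11 values passed the limit set for them and 38 did not. Some of the 38 could not differ from the main value. Members have 0 rows on other contigs, so the settings with all contigs repeat it. The settings for overlap with another symbol are parts of a main count that is already 0. The limit was any change for a median, the binomial interval for a share and a fixed ratio for a count, so counts could still differ, as from 28 to 34 alpha members by row. The median alpha span of 973 bases became 975 over transcript rows and 843 from the first to the last coding base, and the median beta span of 3165 became 2886 over coding bases. Alpha genes that share an exon structure rose from 7 to 26, and beta genes from 0 to 9, with coding bases alone. The 5 clusters became 1 with alpha genes alone, 7 at a gap of 100 kb and 4 at 2 Mb. The choices on promoters were added after seeing the data. Letter by letter from the annotated start, the median identity fell to 27.7% for alpha and 25.3% for beta pairs. Over the 200 bases before the coding start it was 83.5% and 26.0%, and 32 alpha pairs in place of 17 reached 90%. The cause was not tested. Counting cysteines in proteins was not run. No paired analysis was possible because defensin coordinates carry no measurement for any library, and no replicate could be left out for the same reason.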

Other observations

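The 6 alpha genes whose rows are repeated fell into 3 of the 5 pairs with the same letters over the whole promoter window. Among the 16 alpha genes with a window, 10 were in such a pair. The 3 pairs with repeated rows were Defa23 with Defa31, Defa36 with Defa37, and Defa42 with Defa43. The other 2 pairs, Defa21 with Defa22 and Defa2 with Defa20, have no repeated row. The reference table lists 1 curated transcript for each of the 6. The cause was not tested.

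Some loci inside the clusters resemble members but carry other names. AY761185 (chr8:20943694-20944748, minus), between Defb33 and Defa21, had 2 coding exons of 172 and 113 bases and an intron of 569 bases. Its first coding exon thus had the size seen in 26 of 28 alpha genes, and in 0 of 42 coding beta genes. Gm15056 (267 coding bases) and Gm6040 (192), on the same side of the array, are listed in the reference table with Defb52 and Defb51 as other names. Adding them left the median beta coding length at 219 bases. Defa-ps1, a transcribed pseudogene of 842 bases inside the array, is not a member by name.

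Some names are shared between members. In the reference table, 11 members (5 alpha and 6 beta) list the current symbol of another member among their other names. Defa3, for example, has Defa27 as another name, Defa17 has Defa3, Defb47 has Defb41 and Defb48 has Defb42. In addition, 14 alpha and 3 beta genes list a provisional Gm name. Alpha genes with other names beginning with CRS include Defa31 (CRS4C-2 and others), Defa38 (CRS1C-2) and Defa39 (CRS1C-3 and CRS1C-6).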
